A study of Arabidopsis thaliana with 6 samples.

Results

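The XYLOGLUCAN ENDOTRANSGLUCOSYLASE/HYDROLASE (XTH) family of Arabidopsis was followed in roots of the ipt1,3,5,7 mutant after cytokinin treatment. The members were chosen by locus identifier: the 33 loci named XTH1 to XTH33, out of 33602 genes with a row in the count tables. No measured value entered this rule, but earlier results of these data were known when the members were chosen. RNA-Seq counts came from 6 libraries of total RNA in 2 groups of 3, labelled BAP and DMSO. BAP plants had been moved on their mesh to plates with the synthetic cytokinin 6-benzylaminopurine (BAP) at 1 µM and were harvested 4 h later. DMSO plants had been moved to plates with dimethyl sulfoxide (DMSO), the solvent, and were harvested 1 h later, so that the effect of BAP and that of the longer time since the move cannot be told apart. All 6 libraries carried the ipt1,3,5,7 mutations in isopentenyltransferase genes, which encode the first enzymes of cytokinin synthesis, and there was no wild-type library. Plants were 7 d old, and the RNA was from primary roots cut a little below the hypocotyl, without root tips and lateral roots.

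Xyloglucan is the main hemicellulose of the growing primary wall in Arabidopsis and binds to cellulose microfibrils. XTH proteins are secreted to the wall, where they cut a xyloglucan chain and either join the new end to another xyloglucan chain (endotransglucosylation) or release it with water (hydrolysis). By sequence the family is divided into groups I, II and III, and hydrolase activity is known mainly from XTH31 and XTH32, a small branch of group III. Within the roots, individual XTH genes are known for expression in different cell types, among them elongating cells, vascular cells and root hairs.

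The libraries held 19957748 to 20127269 counts each. Levels are given as CPM (counts per 1e6 counts, with library sizes scaled by the TMM method), in which 1 read equalled 0.0480 to 0.0523 CPM. Genes were compared with one another per exon length, as RPKM (CPM per kb of exon). Exon lengths are those of the RefSeq annotation and can differ from the gene models counted. XTH22 has 1590 exon bases there, more than its whole span in the count tables (chr5:23307130-23308282). XTH9, XTH20 and XTH23 are among others that exceed theirs. The RPKM of such genes is too low beside other genes, so ranks and family shares by RPKM are approximate. All 4 type-A response regulator genes examined (ARR5, ARR7, ARR15 and ARR16), which cytokinin induces, were called higher after BAP, with a summed level of 287.6 to 336.5 CPM in BAP libraries and 16.8 to 20.9 CPM in DMSO libraries. Of the 4 IPT genes mutated in all plants, IPT5 and IPT7 were called lower after BAP, IPT3 was tested and not called, and IPT1 was too low to test. All 8 markers of mature root tissues were detected in every library (322.4 to 351.0 CPM summed in BAP, 281.5 to 302.8 CPM in DMSO), with 2 called higher and 1 lower. All 6 lateral root markers were called lower after BAP. Their sums were 10.2 to 10.4 CPM in BAP libraries and 45.2 to 47.3 CPM in DMSO libraries. At most 1 of these 6 was at 0 in any library, and LBD33 was near the floor with 4, 0 and 0 reads in BAP libraries. With genes kept only at a mean of at least 1 CPM, 4 of the 6 were called lower. The 7 root tip markers summed to 20.7 to 28.3 CPM in BAP and 30.0 to 35.3 CPM in DMSO (2 of 6 tested were lower, none was at 0), and the 6 photosynthesis genes to 64.2 to 103.9 CPM in BAP and 77.6 to 97.3 CPM in DMSO (1 higher, 1 lower, none at 0). Over all genes tested, 11.6% were called higher and 11.4% lower. The part of these markers in the XTH results was not tested. In bulk RNA, fewer cells of a type cannot be told apart from less RNA per cell.

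Of the 33 XTH genes, 29 had reads in all 6 libraries and 2, XTH1 and XTH3, had none in any. The filter on low counts kept 26 for testing. A gene was called when its edgeR adjusted p was at most 0.05 and its log2 fold change (log2FC, BAP over DMSO) at least 0.5 in size. By this rule 7 XTH genes were higher after BAP (XTH7, XTH8, XTH20, XTH28, XTH31, XTH32 and XTH33), 5 were lower (XTH15, XTH16, XTH18, XTH21 and XTH27) and 14 were not called. That is 26.9% higher and 19.2% lower of the tested XTH genes (46.2% in all), beside 11.6% higher and 11.4% lower (22.9% in all) of the 20987 genes tested. The median log2FC of the tested XTH genes was 0.06, beside 0.000464 over all genes tested, with 13 values above 0 and 13 below. The CPM of the BAP and DMSO libraries did not overlap for 13 of the 26, which is close to the share of 51.4% over all genes tested. By group, 2 of 6 tested members of group I were higher and none lower, 1 of 14 in group II was higher and 4 lower, and 4 of 6 in group III were higher and 1 lower. The median log2FC was 0.04 in group I, -0.04 in group II and 1.08 in group III. Among the remaining genes the log2FC ran between -0.55 and 1.41, and 9 of the 14 stayed under 0.3 in size.

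**Figure D1:**
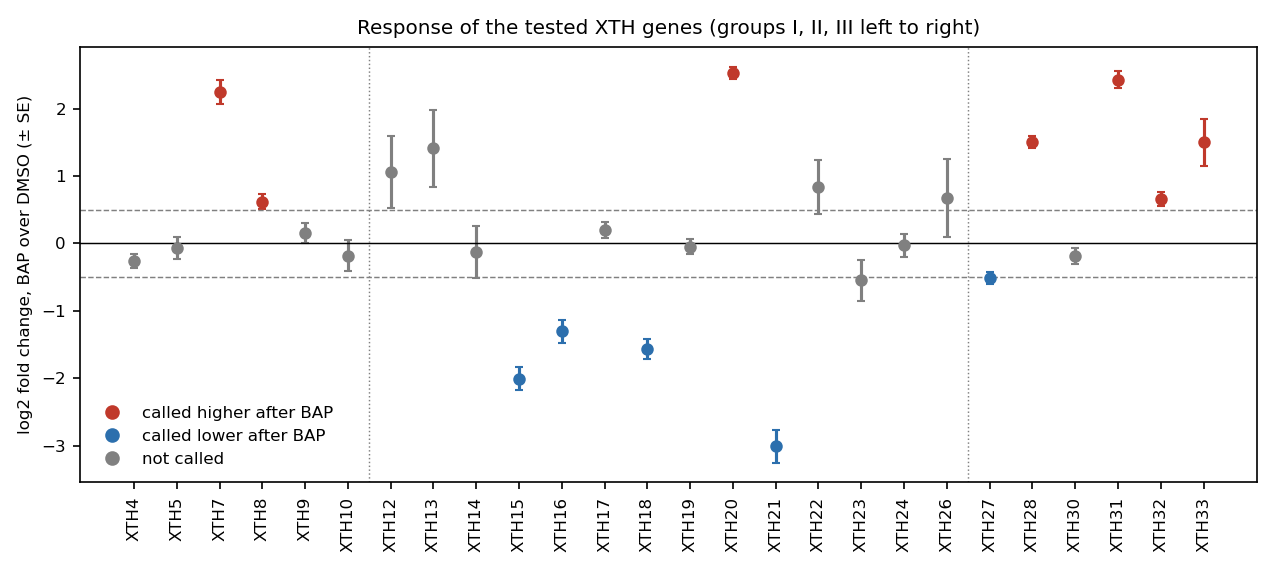
The log2 fold change (BAP over DMSO) of the 26 tested XTH genes, with bars of 1 SE from the edgeR fit and n = 3 libraries per group. Dashed lines mark the minimum of 0.5 in size, and dotted lines part groups I, II and III. XTH20, XTH31 and XTH7 lie highest and XTH21 lowest.

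Per exon length, XTH31 was the most abundant member in all 6 libraries. Its level averaged 339.4 ± 45.4 RPKM in BAP and 62.95 ± 7.65 RPKM in DMSO (SD, n = 3 each). The next member after BAP was XTH20, with 108.1 ± 6.81 RPKM in BAP and 18.7 ± 2.03 RPKM in DMSO. In DMSO the members that followed XTH31 were XTH15 (10.2 RPKM in BAP, 40.8 ± 8.19 RPKM in DMSO), XTH27 (26.2 in BAP, 37.4 in DMSO) and XTH18 (11.8 in BAP, 34.9 ± 5.48 in DMSO). The values of XTH15, XTH27 and XTH18 overlapped between DMSO libraries, so their order there lies within the spread. The same held after BAP for the members that followed XTH20, which were XTH28 (29.9 RPKM in BAP, 10.6 in DMSO), XTH30 (28.4 in BAP, 32.3 in DMSO) and XTH14 (27.5 ± 5.34 in BAP, 30.1 ± 19.7 in DMSO). Mean levels reached 10 RPKM for 16 members after BAP and 15 in DMSO, and 1 RPKM in both groups for 24.

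Summed over the family, the transcript level was 774.1, 799.7 and 701.9 RPKM in the BAP libraries, against 486.1, 400.7 and 424.7 RPKM in the DMSO libraries. The 3 BAP libraries lay above the 3 DMSO libraries, and their means were 758.6 ± 50.7 and 437.2 ± 44.0 RPKM (SD, n = 3 each), a ratio of 1.735. An exact permutation test of 3 against 3 libraries cannot give a p below 0.10, so none is attached to these sums. XTH31 and XTH20 held 63.6, 57.2 and 56.0% of the family's RPKM in the BAP libraries and 17.9, 17.7 and 20.5% in the DMSO libraries. Without them, the other 31 members summed to 281.8, 342.4 and 308.9 RPKM in BAP and 399.0, 329.8 and 337.8 RPKM in DMSO. The groups overlapped in these sums. XTH31 and XTH20 were picked from the same values as the highest members after BAP, and the members called lower stayed in. The overlap is therefore a description and not a test.

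**Figure D2:**
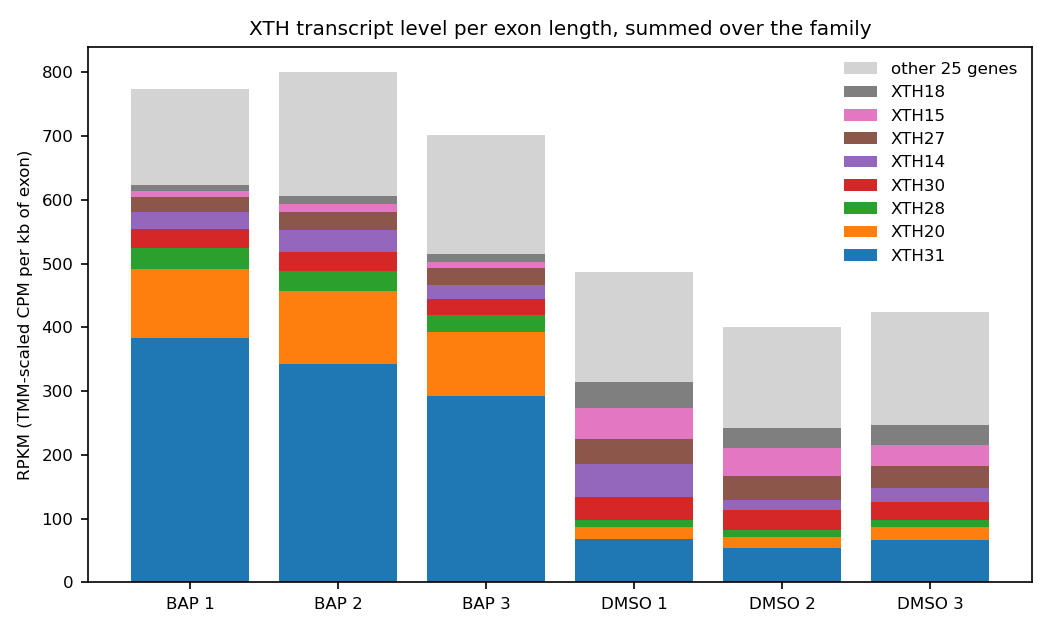
RPKM summed over the 33 XTH genes in each library, BAP left and DMSO right, with 8 members in colour and the other 25 in grey. XTH31 alone makes up 41.6 to 49.4% of the bar in BAP libraries and 13.5 to 15.6% in DMSO libraries.

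Group I comprises XTH1 to XTH11, of which 6 were tested. XTH7 (AT4G37800, chr4:17775474-17777397, minus strand) had 8.18, 9.67 and 6.89 CPM in BAP libraries, against 1.49, 1.69 and 2.02 CPM in DMSO libraries. Every BAP library was thus above every DMSO library, and the gene was 4.75-fold higher after BAP (log2FC 2.25 ± 0.18 SE, edgeR adjusted p = 3.80e-05). XTH8 (AT1G11545) had 16.0, 16.2 and 15.7 CPM in BAP libraries and 11.5, 8.72 and 11.0 CPM in DMSO libraries. Its BAP values were close together and above the DMSO values, for a log2FC of 0.62 ± 0.11 (adjusted p = 0.00301). Without DMSO 2, the lowest library, its log2FC was 0.49 and it was not called.

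The remaining tested members of group I were not called. XTH4 and XTH9, both known from stems for a part in secondary growth, were the most abundant of them per exon length. XTH4 had 32.8, 29.6 and 34.8 CPM in BAP libraries against 34.5, 42.2 and 40.1 CPM in DMSO libraries, with BAP 3 above DMSO 1 (log2FC -0.26 ± 0.10, adjusted p = 0.0602). XTH9 had 27.6, 21.1 and 27.4 CPM in BAP libraries and 19.9, 21.0 and 27.7 CPM in DMSO libraries, which overlapped (log2FC 0.15 ± 0.15, adjusted p = 0.460). XTH5 and XTH10 lay between 2.07 and 8.78 CPM in all libraries, with log2FC values of -0.07 ± 0.16 and -0.18 ± 0.23. XTH6 and XTH11 were too low to test, with 20 and 28 reads over the BAP libraries against 7 and 22 reads over the DMSO libraries. The ratio of XTH6 reads in BAP over DMSO was 2.84 (95% interval 1.16 to 7.96, exact, counting error only). In a fit with no filter beyond 1 read, XTH6 was not called (log2FC 1.53, edgeR adjusted p = 0.0989). XTH2 had no read in BAP and 3 in DMSO libraries.

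**Figure D3:**
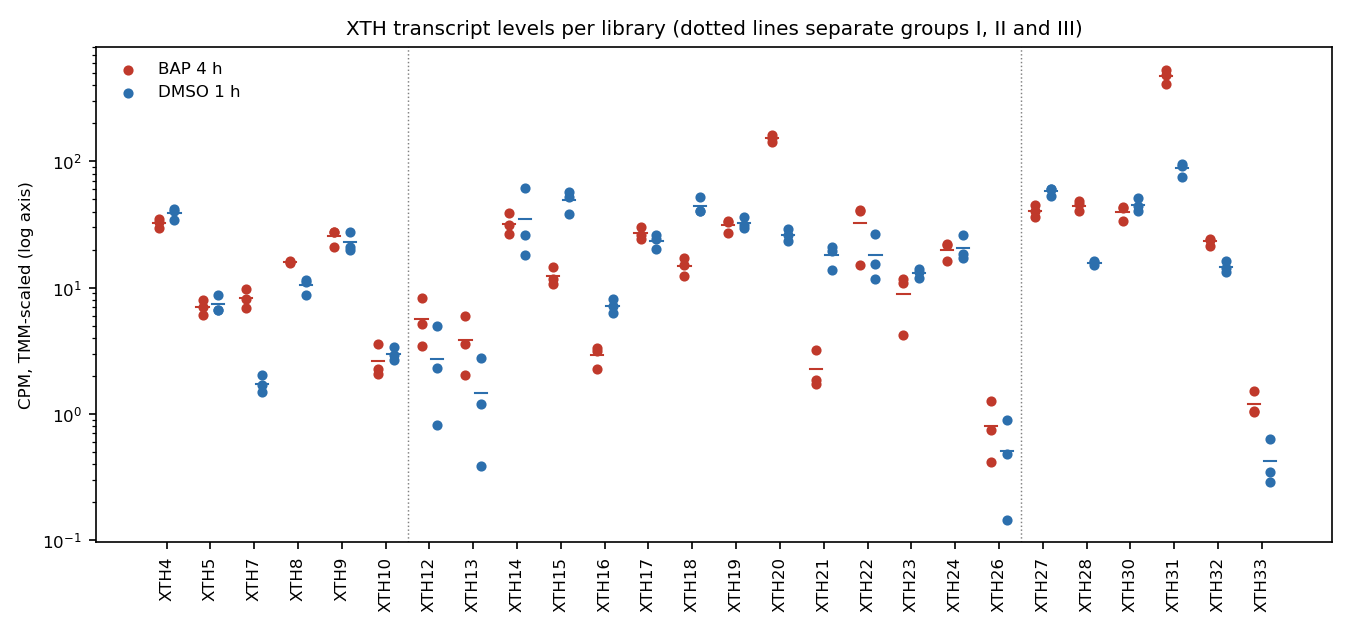
CPM (log axis) of the 26 tested XTH genes in each library, with BAP libraries as the left column of points and DMSO libraries as the right column for each gene, short bars at the group means and dotted lines between groups I, II and III. XTH31 and XTH20 stand highest in BAP, and XTH21 and XTH15 show BAP points below all their DMSO points.

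Group II comprises XTH12 to XTH26. Its clade of XTH17, XTH18, XTH19 and XTH20 is known for expression in roots, and XTH19 and XTH20 are also known from the rejoining of cut stem tissue. The proteins were 84.0 to 93.3% identical in pairs, the closest pair being XTH17 and XTH18. XTH18 (chr4:14825808-14827047) and XTH19 (chr4:14828712-14830016) are neighbours on the minus strand with a gap of 1664 bases and no gene between them, while XTH17 (chr1:24257216-24258473) and XTH20 (chr5:19482106-19483452) stand alone on the plus strand. The 250 bases before each start are shown because XTH18 and XTH20 lay furthest apart in their response among the 14 most similar pairs. They are from RefSeq (TAIR10.1), read 5′ to 3′ along the gene, at chr1:24256804-24257053 (plus strand) for XTH17, chr4:14827212-14827461 (minus) for XTH18, chr4:14830225-14830474 (minus) for XTH19 and chr5:19481647-19481896 (plus) for XTH20. Capitals mark the longest run identical to XTH18 and, in XTH18, the longest run identical to XTH17.
XTH17: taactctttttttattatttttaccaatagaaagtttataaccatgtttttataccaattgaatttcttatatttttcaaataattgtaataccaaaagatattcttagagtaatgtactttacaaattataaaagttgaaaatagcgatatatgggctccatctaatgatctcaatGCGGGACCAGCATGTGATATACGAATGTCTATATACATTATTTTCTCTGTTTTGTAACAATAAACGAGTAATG
XTH18: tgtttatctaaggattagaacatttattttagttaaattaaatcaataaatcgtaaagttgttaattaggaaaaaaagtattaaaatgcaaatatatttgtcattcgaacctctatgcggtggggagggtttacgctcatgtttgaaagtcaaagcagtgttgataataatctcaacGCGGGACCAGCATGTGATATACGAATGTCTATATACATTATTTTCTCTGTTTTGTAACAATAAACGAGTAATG
XTH19: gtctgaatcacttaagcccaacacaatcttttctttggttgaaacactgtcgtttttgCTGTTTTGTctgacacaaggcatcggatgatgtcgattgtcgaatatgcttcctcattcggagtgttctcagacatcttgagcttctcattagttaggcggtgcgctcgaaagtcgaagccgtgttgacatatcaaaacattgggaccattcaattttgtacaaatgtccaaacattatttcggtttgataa
XTH20: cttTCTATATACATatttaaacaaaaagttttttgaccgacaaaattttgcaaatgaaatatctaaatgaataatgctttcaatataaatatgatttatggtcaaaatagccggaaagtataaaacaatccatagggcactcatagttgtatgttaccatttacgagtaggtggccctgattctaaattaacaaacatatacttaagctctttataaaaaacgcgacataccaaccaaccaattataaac
XTH17 and XTH18 share 73 bases in a row up to the start, and the identical run goes on for 7 bases past it, 80 in all. The longest run shared with XTH18 was 9 bases in XTH19 and 11 bases in XTH20, at other distances from the start.

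XTH20 (AT5G48070) had 154.0, 160.5 and 141.6 CPM in the BAP libraries, against 26.1, 23.5 and 29.2 CPM in the DMSO libraries. All BAP values lay far above all DMSO values, and the gene was 5.79-fold higher after BAP (log2FC 2.53 ± 0.09, adjusted p = 8.19e-07). XTH18 (AT4G30280) had 12.3, 17.2 and 15.1 CPM in BAP libraries and 52.1, 40.0 and 40.2 CPM in DMSO libraries. It went the opposite way, with all BAP values under all DMSO values and a level 2.97-fold lower (log2FC -1.57 ± 0.15, adjusted p = 7.69e-05). XTH17 (AT1G65310) had 24.1, 30.3 and 26.1 CPM in BAP libraries against 26.0, 20.2 and 24.1 CPM in DMSO libraries. XTH19 (AT4G30290) had 27.2, 33.5 and 32.9 CPM in BAP libraries against 31.3, 29.5 and 35.9 CPM in DMSO libraries. Both overlapped between groups, with log2FC values of 0.20 ± 0.12 for XTH17 (adjusted p = 0.227) and -0.05 ± 0.11 for XTH19 (adjusted p = 0.756).

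The relation between these 4 transcripts was therefore not the same in the 2 groups. XTH18 had 0.451, 0.514 and 0.459 times the counts of XTH19 in BAP libraries, and 1.66, 1.36 and 1.12 times in DMSO libraries. The ratio of XTH20 to XTH18 was 12.6, 9.33 and 9.37 in BAP libraries and 0.502, 0.587 and 0.726 in DMSO libraries, and that of XTH17 to XTH18 was 1.96, 1.76 and 1.73 in BAP and 0.498, 0.505 and 0.600 in DMSO. None of these ratios overlapped between groups, and each contains XTH18, which did not overlap on its own. Ratios of counts between genes depend on exon length, which is the same in every library, so they are compared here between libraries and not as levels. XTH18 shared 1.70% of its 50-base exon words with other genes, XTH19 shared 1.77% and XTH17 shared 0.18%, and XTH20 shared none.

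As a description of the letters around the RefSeq start, AGATT, the core bound by type-B response regulators of the cytokinin pathway, was searched on both strands. The window was 300 bases, which are the 250 before that start and the 50 that follow. AGATT occurred in XTH18 (at -82) and XTH19 (at -226) and not in XTH17, XTH20 or XTH31. For each of these genes the RefSeq start lies upstream of the start in the count tables, by more than 50 bases. The bases just before the latter start were therefore not all searched. It was found in 22 of 33 XTH genes (66.7%), beside 69.4% of 32822 genes with a start in RefSeq, and in 5 of the 7 genes called higher and 3 of the 5 called lower. The auxin response element core TGTCTC occurred in 3 of 33 XTH genes (9.1%, in XTH21 after the start) and in 14.0% of all genes, and the G-box CACGTG in none of 33 and in 6.9% of all. CGTGTG or CGTGCG, the brassinosteroid response element bound by BZR1, occurred in 4 of 33 (12.1%) and in 7.7% of all.

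**Figure D4:**
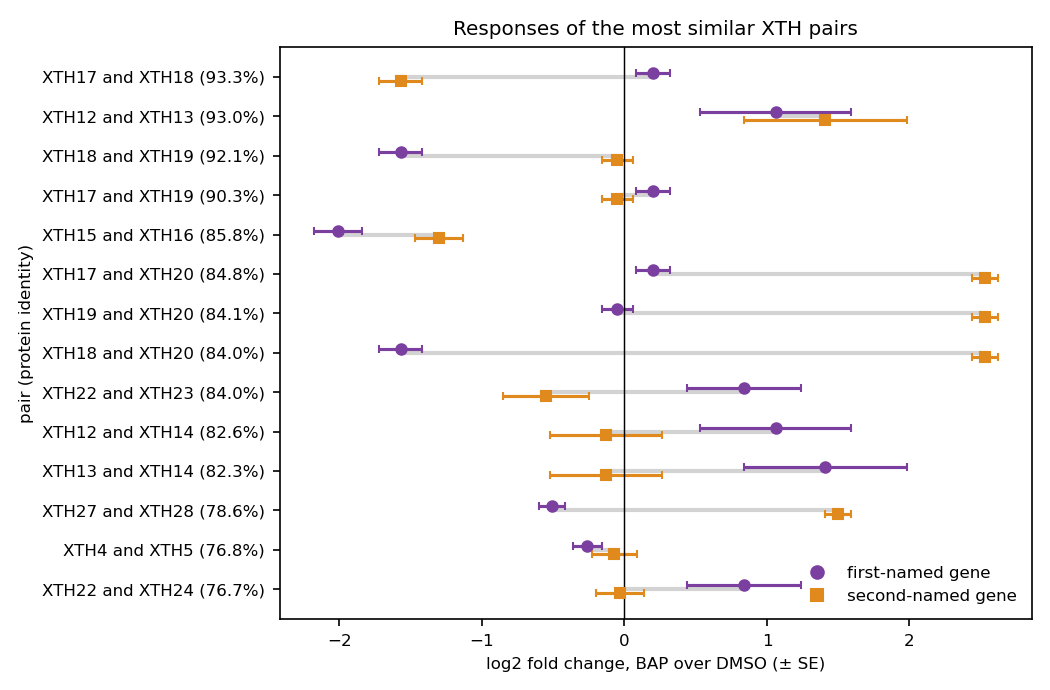
The log2 fold change (BAP over DMSO, bars of 1 SE) of both members of the 14 pairs of tested XTH genes with the most similar proteins, the percent identity being given beside each pair. XTH18 and XTH20, 84.0% identical, lie at -1.57 and 2.53, while XTH15 and XTH16 both lie below 0.

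XTH21 (AT2G18800, chr2:8144912-8146265, plus strand), whose loss is known to shorten the primary root, had 1.71, 3.19 and 1.85 CPM in BAP libraries and 19.4, 21.0 and 13.8 CPM in DMSO libraries. Every BAP library was far below every DMSO library, and the gene was 8.04-fold lower (log2FC -3.01 ± 0.24, adjusted p = 3.67e-05). This was the largest fold change in size among the tested members. XTH21 shared 7.82% of its 50-base exon words with AT2G12660.

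XTH15 (AT4G14130, chr4:8137051-8138281, minus strand) and XTH16 (AT3G23730, chr3:8550110-8551335, plus strand), 85.8% identical as proteins, were both lower. XTH15, known for its part in shade-induced petiole elongation, had 10.6, 14.5 and 11.7 CPM in BAP libraries and 57.5, 52.0 and 38.3 CPM in DMSO libraries. XTH16 had 2.28, 3.29 and 3.14 CPM in BAP libraries and 8.07, 6.31 and 7.15 CPM in DMSO libraries. The BAP values of both genes lay below all their DMSO values, with a log2FC of -2.01 ± 0.17 for XTH15 (adjusted p = 4.40e-05) and of -1.30 ± 0.17 for XTH16 (adjusted p = 5.40e-04). The ratio of XTH15 to XTH16 counts was 4.66, 4.40 and 3.71 in BAP libraries and 7.12, 8.23 and 5.36 in DMSO libraries. In RefSeq, 31.42% of the exon words of XTH15 (333 of 1060) also lie in AT4G14120, which overlaps it there. In the coordinates of the count tables no gene overlaps XTH15. Whether the RefSeq overlap bears on its counts was not tested.

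XTH22 (AT5G57560), long known as the touch-induced gene TCH4, and its relative XTH23 (AT4G25810) were not called. XTH22 had 15.1, 40.2 and 41.3 CPM in BAP libraries and 11.8, 15.4 and 26.7 CPM in DMSO libraries (log2FC 0.84 ± 0.40, adjusted p = 0.129). XTH23 had 4.19, 11.7 and 10.8 CPM in BAP libraries and 13.2, 11.9 and 14.0 CPM in DMSO libraries (log2FC -0.55 ± 0.30, adjusted p = 0.184). BAP 1 was the lowest BAP library for both, and XTH23 alone did not overlap between groups. XTH22 was called higher without BAP 1 (log2FC 1.18, adjusted p = 0.0158) and without DMSO 3 (1.23, adjusted p = 0.0499). The log2FC of XTH23 was -0.21 without BAP 1 and between -0.80 and -0.51 without any other library. The ratio of XTH22 to XTH23, 84.0% identical as proteins, was 3.59, 3.44 and 3.83 in BAP libraries and 0.891, 1.30 and 1.90 in DMSO libraries.

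BAP 1 was also the lowest BAP library for all 8 touch and wounding genes examined. That order was found in 16 of the 26 tested XTH genes (61.5%) and in 32.7% of all genes tested. Those 8 genes, none at 0, summed to 320.3, 523.9 and 494.4 CPM in BAP libraries and 545.6, 588.9 and 641.3 CPM in DMSO libraries. Of them CAM2 (mean 117.5 CPM in BAP, 225.4 in DMSO) and TCH3 (22.0 and 120.1) were called lower in the fit of all libraries. None was called higher, beside 11.6% higher and 11.4% lower of all genes tested. The median log2FC of the 8 was 0.16, with 5 values above 0 and 3 below. Without BAP 1, 4 were called higher. XTH24 (AT4G30270), first described as the meristem gene MERI5B, had 16.3, 21.6 and 22.0 CPM in BAP libraries and 25.9, 18.4 and 17.0 CPM in DMSO libraries, which overlapped (log2FC -0.03 ± 0.17, adjusted p = 0.901). The part of the touch and wounding genes in the values of XTH22 and XTH23 was not tested.

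XTH12, XTH13, XTH14 and XTH26 varied widely between libraries of 1 group and overlapped between groups. XTH14 and XTH26 are known for proteins that act in root hairs and in elongating root cells. XTH14 (AT4G25820) had 31.1, 38.8 and 26.5 CPM in BAP libraries and 61.2, 18.1 and 26.0 CPM in DMSO libraries (log2FC -0.13 ± 0.39, adjusted p = 0.822). XTH12 (AT5G57530) had 3.42, 8.31 and 5.14 CPM in BAP libraries and 5.00, 0.819 and 2.30 CPM in DMSO libraries (log2FC 1.06 ± 0.53, adjusted p = 0.150). In both, DMSO 1 was the highest and DMSO 2 the lowest DMSO library, and the groups overlapped. XTH13 (AT5G57540), 93.0% identical to XTH12 as a protein, had 2.02, 5.96 and 3.59 CPM in BAP libraries and 2.77, 0.386 and 1.20 CPM in DMSO libraries (log2FC 1.41 ± 0.57, adjusted p = 0.0857). XTH26 had 0.414, 1.25 and 0.748 CPM in BAP libraries and 0.891, 0.145 and 0.480 CPM in DMSO libraries (log2FC 0.67 ± 0.58, adjusted p = 0.396).

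These 4 genes, singled out after their values were seen, shared an order of libraries: DMSO 1 above DMSO 3 above DMSO 2, with BAP 2 the highest of the BAP libraries. The order was not particular to them, as 8 of the 26 tested XTH genes (30.8%) had it, these 4 included. The same order was found in all 7 root hair marker genes (EXPA7, EXPA18, COBL9, RSL4, PRP3, LRX1 and PER44), and in 6.6% of all genes tested. The root hair markers, none at 0, summed to 164.5, 215.3 and 163.7 CPM in BAP libraries and 234.8, 74.8 and 132.1 CPM in DMSO libraries, and only COBL9 was called, higher after BAP. Without DMSO 1, 4 of the 7 markers were called higher, and so were XTH12 (log2FC 1.83, adjusted p = 0.0212) and XTH13 (log2FC 2.26, adjusted p = 0.0176), while XTH14 turned to 0.53. Without any 1 of the other 5 libraries, none of the 7 markers was called, and neither were XTH12 and XTH13, whose log2FC without DMSO 2 was 0.61 for XTH12 and 0.94 for XTH13. The part of root hair content in these values was not tested.

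**Figure D5:**
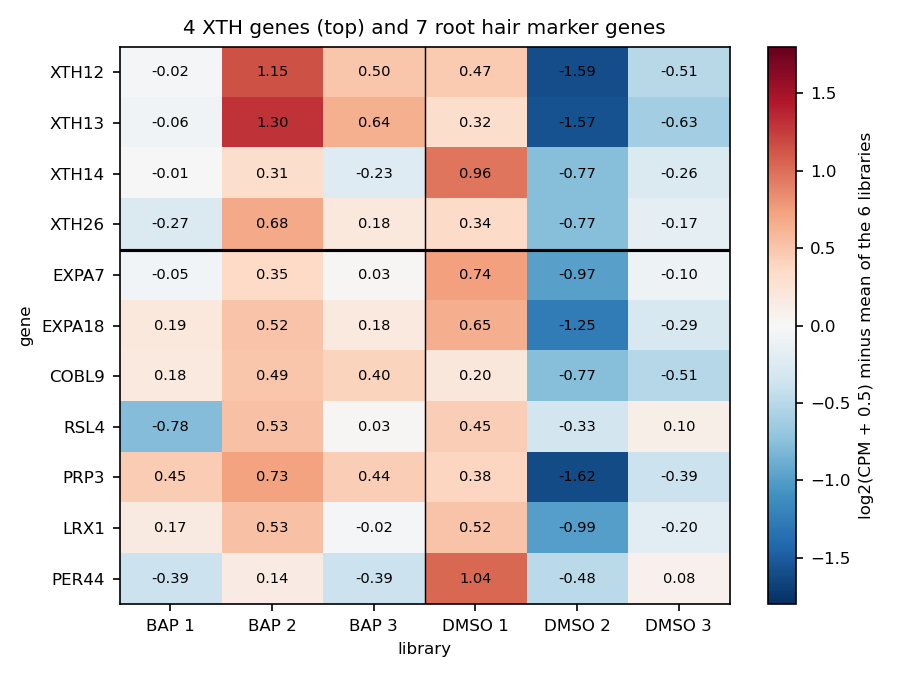
Deviation of log2(CPM + 0.5) from the mean of the 6 libraries, for 4 XTH genes above the line and 7 root hair marker genes below it, with BAP libraries left and DMSO libraries right. DMSO 1 is the highest and DMSO 2 the lowest DMSO library in all 11 genes, and BAP 2 is the highest BAP library.

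Some members are neighbours in the genome. XTH24, XTH18 and XTH19 lie in a row on chromosome 4, and of them only XTH18 was called. XTH23 (chr4:13128643-13129884) and XTH14 (chr4:13130297-13131788) are 412 bases apart on the plus strand, and neither was called. On chromosome 5, XTH12, XTH13, XTH25 and XTH22 lie between 23300321 and 23308282 on the minus strand, and none was called. XTH25 had 2 reads in BAP and none in DMSO libraries, too few to test.

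Group III comprises XTH27 to XTH33, and 5 of its 6 tested members were called. XTH31 (AT3G44990, chr3:16446975-16448764, minus strand), a xyloglucan hydrolase that is known from roots, had 533.2, 478.1 and 407.2 CPM in BAP libraries, against 95.4, 75.5 and 92.2 CPM in DMSO libraries. The groups lay far apart, and XTH31 was 5.39-fold higher after BAP (log2FC 2.43 ± 0.13, adjusted p = 3.89e-06). XTH32 (AT2G36870, chr2:15472645-15474681, minus strand), the other member of the hydrolase branch, had 24.0, 24.3 and 21.5 CPM in BAP libraries and 13.3, 14.3 and 16.4 CPM in DMSO libraries. XTH32 was higher too, without overlap but by less (log2FC 0.66 ± 0.10, adjusted p = 0.00102). The ratio of XTH31 to XTH32 counts was 22.3, 19.7 and 19.0 in BAP libraries and 7.19, 5.28 and 5.63 in DMSO libraries.

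XTH28 and XTH27, 78.6% identical as proteins, moved in opposite directions. XTH28 (AT1G14720, chr1:5066636-5068645, minus strand), known for a part in stamen filament growth, had 48.0, 45.5 and 40.3 CPM in BAP libraries and 15.2, 16.3 and 15.9 CPM in DMSO libraries. XTH27 (AT2G01850, chr2:385199-387344, plus strand), known from the tracheary elements of leaf veins, had 36.2, 44.8 and 40.4 CPM in BAP libraries and 60.0, 59.8 and 53.6 CPM in DMSO libraries. Neither gene overlapped between groups. XTH28 was 2.83-fold higher (log2FC 1.50 ± 0.09, adjusted p = 6.19e-06) and XTH27 1.43-fold lower (log2FC -0.51 ± 0.09, adjusted p = 0.00267). The call of XTH27 lay just past the fold minimum and was lost without BAP 1 (log2FC -0.44), without DMSO 1 (-0.50) and with upper-quartile scaling (-0.49). XTH28 had 1.33, 1.02 and 0.996 times the counts of XTH27 in BAP libraries and 0.253, 0.273 and 0.297 times in DMSO libraries.

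XTH33 (AT1G10550, chr1:3479153-3480988, minus strand), whose protein is predicted to be anchored in the plasma membrane, was low, with 20, 29 and 21 reads in BAP libraries and 7, 13 and 6 reads in DMSO libraries. These counts, 1.04, 1.52 and 1.05 CPM in BAP and 0.347, 0.627 and 0.288 CPM in DMSO, did not overlap, and XTH33 was called higher (log2FC 1.50 ± 0.35, adjusted p = 0.00950). XTH30 had 42.3, 43.2 and 33.6 CPM in BAP libraries and 51.5, 44.1 and 40.1 CPM in DMSO libraries, which overlapped (log2FC -0.19 ± 0.12, adjusted p = 0.261). XTH29 was too low to test, with 8 reads over the BAP libraries and 26 over the DMSO libraries. The ratio was 0.306 (95% interval 0.120 to 0.696, counting error only). In a fit with no filter beyond 1 read, XTH29 was not called (log2FC -1.59, edgeR adjusted p = 0.0600).

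Of 19 other genes for the making and trimming of xyloglucan, all tested, 3 were higher and 1 lower after BAP (15.8 and 5.3%), beside 11.6 and 11.4% of all genes tested, with a median log2FC of 0.24. Without BAP 1, 5 were higher. Of the 5 genes for the glucan backbone, CSLC4, which encodes a main glucan synthase, was higher, with 66.1, 95.2 and 103.6 CPM in BAP libraries and 38.5, 33.2 and 48.5 CPM in DMSO libraries (log2FC 1.14 ± 0.18, adjusted p = 0.00157). Its BAP values lay above all DMSO values, with BAP 1 the lowest of them. None of 11 side chain genes was called higher, and AXY4, which encodes a xyloglucan O-acetyltransferase, was lower, with 14.2, 15.0 and 13.4 CPM in BAP libraries and 33.8, 30.2 and 26.9 CPM in DMSO libraries (log2FC -1.10 ± 0.10, adjusted p = 7.12e-05). XXT2, another side chain gene, did not overlap between groups and passed the test, but stayed under the fold minimum (log2FC 0.36 ± 0.06, adjusted p = 0.00209).

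Of the 3 genes whose enzymes trim xyloglucan side chains in the wall, 2 were higher. XYL1, an alpha-xylosidase, had 334.0, 335.8 and 373.2 CPM in BAP libraries and 106.2, 116.0 and 125.7 CPM in DMSO libraries (log2FC 1.58 ± 0.09, adjusted p = 4.74e-06). BGAL10, a beta-galactosidase, had 31.9, 27.8 and 34.8 CPM in BAP libraries and 13.0, 13.8 and 15.9 CPM in DMSO libraries (log2FC 1.14 ± 0.11, adjusted p = 9.39e-05). Neither overlapped between groups. AXY8, an alpha-fucosidase, passed the test but stayed just under the fold minimum (log2FC 0.49 ± 0.08, adjusted p = 0.00183).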

How the data were processed

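The authors deposited raw read counts per gene, 1 table per library, with no normalization. The submitters' processing notes and the methods name FastQC, Bowtie2 and HTSeq and the TAIR10 build. Program versions, strand setting and treatment of reads with several matches are not given in the sources used here. Gene positions are those of the count tables, counted from 1.

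Groups and replicates came from the labels. The methods call the samples biological replicates, but the labels do not name separate cultures, so p-values measure only the spread between these libraries. Genes were kept by filterByExpr (minimum count 10), scaled by TMM and tested with edgeR 4.0.16 (R 4.3.3) by its quasi-likelihood method with the group as the only term, with Benjamini-Hochberg adjustment over 20987 genes (12615 were left out). The SE is the size of the log2FC divided by the square root of F. Calls required an adjusted p no higher than 0.05 and a log2FC no smaller than 0.5 in size. The code was tested on simulated data. A count of 0 allows up to 3 reads, 0.144 to 0.157 CPM. Intervals are exact 95% binomial and cover counting error only.

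Exon lengths, start sites and protein sequences came from RefSeq TAIR10.1 (all 33 XTH loci found, and 32823 of 33602 identifiers). Of the identifiers found, 56.8% had the same start or end there as in the count tables. Protein identity is over aligned residues (Biopython 1.88). All 33 members could be named, and other genes by list or as called xyloglucan genes. The members and lists were chosen with earlier results of these data known. Alternatives were DESeq2 1.42.0, its size factors, upper-quartile scaling, other filters and thresholds, the replicate number as a block, and leaving out each library.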

Additional observations from a re-analysis of the deposited data

How the results depend on the processing

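Over 15 alternatives, 5 to 9 XTH genes were called higher and 4 to 5 lower, and over the 6 fits that left out 1 library 6 to 9 were higher and 4 to 5 lower. Of the 12 calls, 10 were made in every fit with 1 library left out, 8 under every alternative, and none in the opposite direction under any. Of 388 values compared, 368 kept their direction and call. Besides the changes given for XTH8, XTH12, XTH13, XTH22 and XTH27 above, XTH8, XTH27 and XTH32 were lost at a log2FC minimum of 1, and XTH33 was not tested with a minimum mean of 1 CPM. The sign turned for 4 genes that were not called. With 1 library left out, the log2FC of XTH5 ranged from -0.17 to 0.06 (0.03 without BAP 1 and 0.06 without DMSO 3), that of XTH14 from -0.46 to 0.53 (without DMSO 1), that of XTH19 from -0.12 to 0.04 (0.04 without BAP 1 and 0.02 without DMSO 3) and that of XTH24 from -0.17 to 0.16 (0.10 without BAP 1 and 0.16 without DMSO 1). The other xyloglucan genes called higher numbered 5 without BAP 1, with XXT1 and AXY8 added, and 5 with no fold minimum. With no fold minimum, 3887 of all genes were higher and 4061 lower, and with a minimum of 1 the counts were 1099 and 1072. The cause was not tested, except that a fold threshold by its construction sets the number of calls.

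The replicate numbers were not taken as pairing the samples, since the labels do not say what a number marks. Deviations from the group means correlated at 0.212, 0.0508 and 0.291 between same-numbered libraries. Between libraries of different number they correlated at -0.285 to 0.0664. BAP 2 correlated slightly better with DMSO 1 (0.0664) than with DMSO 2. Whether same-numbered libraries share a repeat of the experiment was not settled by these values. With the replicate number as a block, 8 XTH genes were higher and 5 lower, XTH22 being added (log2FC 0.81, adjusted p = 0.00857), and XTH14 turned to 0.02. At this depth the 7 members left out of the test had at most 13 reads in a library.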
